A study of Mus musculus with 653 samples.

Results

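Of the 414 cells sorted from E10.5 livers, 130 carried reads of *Pdgfra* and of a fibrillar collagen and next to none of the hepatoblast gene *Afp* or the erythroid gene *Klf1*. They were selected on measured values, namely more than 10 reads of *Pdgfra*, more than 10 reads of at least 1 of *Col1a1* and *Col3a1*, and at most 10 reads each of *Afp* and *Klf1*. These 130 Pdgfra-positive mesenchymal cells, called the members here, were compared with the other 523 of the 653 cells of the series, and most closely with the remaining E10.5 cells that also had at most 10 reads of each of *Afp* and *Klf1*. The other classes were the *Afp*-positive cells (65), the *Klf1*-positive cells, the remaining E13.5 cells (99), and 8 E13.5 cells that met the same read limits.

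The embryos came from Lgr5-EGFP-IRES-creERT2 males, which express GFP from the *Lgr5* locus, crossed with MF1 females, so every group could carry the allele. Cells were stained with Liv2, an antibody to a surface antigen of hepatoblasts, and cells positive for CD31 (endothelium) or CD45 (blood) were gated out. At each stage the bulk group was sorted as Liv2+ and the Lgr5-GFP+ group as Liv2+ and GFP+, giving 414 cells at E10.5 and 239 at E13.5, and each cell was sequenced with the Smart-seq2 protocol, which amplifies the cDNA of 1 cell and adds no molecular identifiers. The labels name no embryo, litter or culture, so each group counted as 1 sample and no test between groups could be made. How many embryos or litters lie behind the members is therefore not known.

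Mesenchyme is the loose embryonic tissue that lies between epithelia and lays down collagens, proteoglycans and fibronectin. *Pdgfra* encodes a receptor tyrosine kinase for platelet-derived growth factors that marks many mesenchymal populations. At the liver bud, hepatoblasts migrate into the mesenchyme of the septum transversum, which exchanges Wnt, BMP, FGF and retinoid signals with them and is a source of the mesothelium and stellate cells of the liver, whereas the mesenchyme of the body wall and limb expresses a different set of homeobox and T-box genes.

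Levels are given in RPM, the reads of a gene summed over a set of cells per 1000000 reads on all genes. A gene entered a comparison when at least 3 reads were found in at least 10% of the cells of 1 side. It was counted as higher or lower only when the ratio was at least 4-fold and pointed the same way in every library pool with at least 5 cells on both sides. A sum under 3 reads was set to 3 reads. A gene absent from both sides of a pool thus had a ratio that favoured the side with fewer reads there. A cell was counted as having a gene when it held more than 10 reads. Intervals are exact at 95% and cover counting error only.

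The 5 library pools did not behave alike. The members had a median of 1223180 reads (497155 to 2074599) and 5953 detected genes per cell, but the median of genes was 4612 and 4338 in pools 1 and 2 against 7055, 6911 and 6003 in pools 3, 4 and 5. The gap between the pools was not removed by thinning every cell to 400000 reads, where the 40 members of pools 1 and 2 had 3047 genes and the 90 members of pools 3 to 5 had 5767. The remaining E10.5 cells were shifted in the same way (2915 and 5592 genes after thinning). They were also spread differently over pools, with 93 in pools 1 and 2 and 92 in pools 3 to 5. Shares of cells are therefore given for both sets of pools for the genes described most fully and over all pools elsewhere, and the part of the pools in the other results was not tested.

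The share of E10.5 cells that met the rule was 31.4% (27 to 36.1). It was 34% of bulk cells (69 cells, 27.5 to 41) and 28.9% of Lgr5-GFP+ cells (61 cells, 22.9 to 35.5), with overlapping intervals. Between pools it ran from 17% in pool 2 to 44.6% in pool 4. At E13.5 the same reads were found in 8 of 239 cells, or 3.35% (1.46 to 6.49).

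The values that chose the members are a description. *Pdgfra* (chr5:75152292-75198215, GRCm38) had between 11 and 2422 reads per member with a median of 223, and 91 members had over 100. Just inside the limit, 7 members had 11 to 20 reads, the lowest 11 and 14. Just outside it, the nearest cells that met the other limits had 9 and 5 reads. A further 34 E10.5 cells with a collagen had 1 to 10 *Pdgfra* reads and 74 had 0, so collagen-bearing cells with at most 10 *Pdgfra* reads were nearly as many as the members. *Col3a1* alone passed the limit in 21 members and *Col1a1* alone in 6, and the others had both. Another 8 cells met the limits for *Pdgfra* and a collagen and were left out, 4 for *Afp* and 4 for *Klf1*.

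The mesenchymal label was checked against 19 further mesenchymal genes that the rule did not use. At least 3 of them were present in all but 5 members (96.2%, 91.3 to 98.7), and the median member had 9.5. In pools 3 to 5 all 90 members had at least 3, and in pools 1 and 2 35 of 40 had. The remaining E10.5 cells reached the same mark in 76.8% of cells (83.7% in pools 3 to 5, 69.9% in pools 1 and 2), the *Afp*-positive cells in 35.4% and the *Klf1*-positive cells in 12.1%. Genes outside the rule thus matched the mesenchymal label in the members, and most of the remaining E10.5 cells carried such genes as well.

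**Figure D1:**
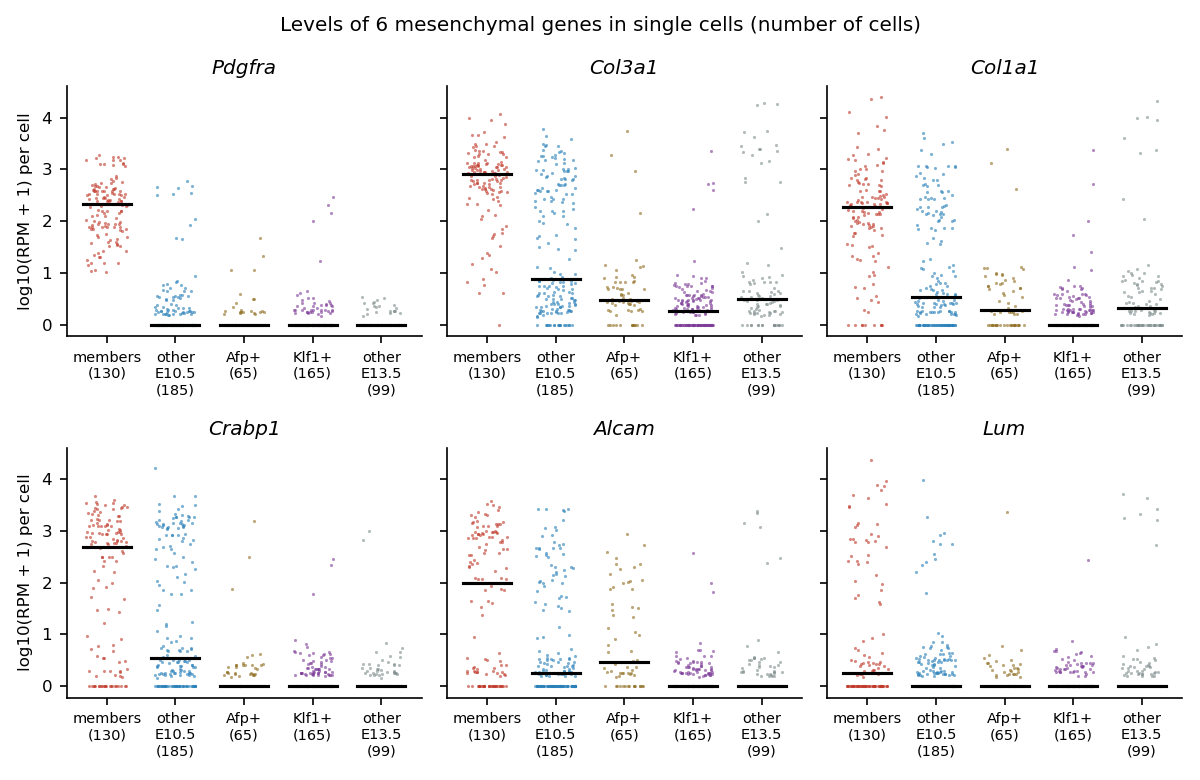
Level of 6 genes in single cells as log10(RPM + 1) (vertical axis), for the members, the remaining E10.5 cells, the *Afp*-positive and *Klf1*-positive cells and the remaining E13.5 cells. Each point is 1 cell and the bar is the median. *Pdgfra*, *Col3a1* and *Col1a1* were used to choose the members, while *Crabp1*, *Alcam* and *Lum* were not. *Lum* lay between 0 and 23787 RPM among the members.

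*Crabp1*, a cytoplasmic carrier of retinoic acid that the rule did not use (chr9:54764748-54773110), ranged from 0 to 4720 RPM per member with a median of 485.5. It passed 10 reads in 87 of 130 members and in 74 remaining E10.5 cells. In pools 3 to 5 the shares were 72.2% and 32.6%, and in pools 1 and 2 they were 55% and 47.3%, so the groups overlapped cell by cell and the gap was wider in pools 3 to 5. The summed level was 860 RPM in members and 492 RPM in the remaining E10.5 cells, a log2 ratio of 0.80 (0.20 to 2.43 between pools), and the log2 ratio to all other cells was 2.17. *Crabp1* was thus at least 4-fold higher than in all other cells and not than in the remaining cells of its own stage.

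Across all genes, smaller shares were called against the remaining E10.5 cells than against all other cells when all pools were used. Against all other cells, 1.03% of 10549 genes were higher and 347 were lower (3.29%). Against the remaining E10.5 cells, 77 of 10281 were higher (0.749%) and 52 were lower (0.506%). The median log2 ratio of all genes was 0.03 and 0.04. For higher genes the order depended on the pools. In pools 1 and 2 alone 4.36% were higher than in the remaining E10.5 cells and 3.22% than in all other cells. These shares were 1.18% and 1.17% without pool 3, and 1.42% and 1.41% without pool 5. Because the classes were cut from the same cells by the rule, these counts describe the classes and test nothing.

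Collagens and other matrix genes lay above both comparison sets in their sum. All 52 genes of the matrix list had reads in members. They summed to 11719 RPM in the members, 5783 RPM in the remaining E10.5 cells and 4370 RPM in all other cells. Of 48 that entered, 37 lay above the remaining E10.5 cells, with a median log2 ratio of 0.63. The criterion was met by 5, *Col1a1* (a gene of the rule), *Lum*, *Dcn*, *Postn* and *Col16a1*, or 10.4% against 0.749% of all genes, and by 0 in the lower direction. *Col16a1* was scarce, with 11.4 RPM against 1.34 RPM and 12 members, and its log2 ratio to all other cells was 0.24, and -0.13 without the highest member. Per kb of gene length, the members' levels were 380 RPM for *Sparc*, a collagen-binding matrix protein, 270.5 RPM for *Lum*, 154.8 RPM for *Col1a1* and 129.1 RPM for *Col3a1*.

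*Lum* (chr10:97565128-97572703) and *Dcn* encode lumican and decorin, small proteoglycans that bind collagen fibrils, and both were carried by a minority of the members. *Lum* ranged from 0 to 23787 RPM per member with a median of 0.785. It passed 10 reads in 38 members and in 13 remaining E10.5 cells, or 35.6% and 9.78% in pools 3 to 5 and 15% and 4.30% in pools 1 and 2. Its summed level was 662 RPM against 80.6 RPM, a log2 ratio of 3.04 (2.19 to 4.89 between pools), and it was 454 RPM without the highest member. *Dcn* had 507.3 RPM in the members and 43.6 RPM in the remaining E10.5 cells, and it was present in 29 members. *Postn*, a matrix protein of mesenchyme and healing tissue, had 595 RPM against 148.2 RPM and was present in 33 members. *Vim*, *Fn1* and *Cdh11*, an intermediate filament protein, fibronectin and a mesenchymal cadherin, were shared more evenly, with log2 ratios to the remaining E10.5 cells of 0.28, 0.85 and 0.31.

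**Figure D2:**
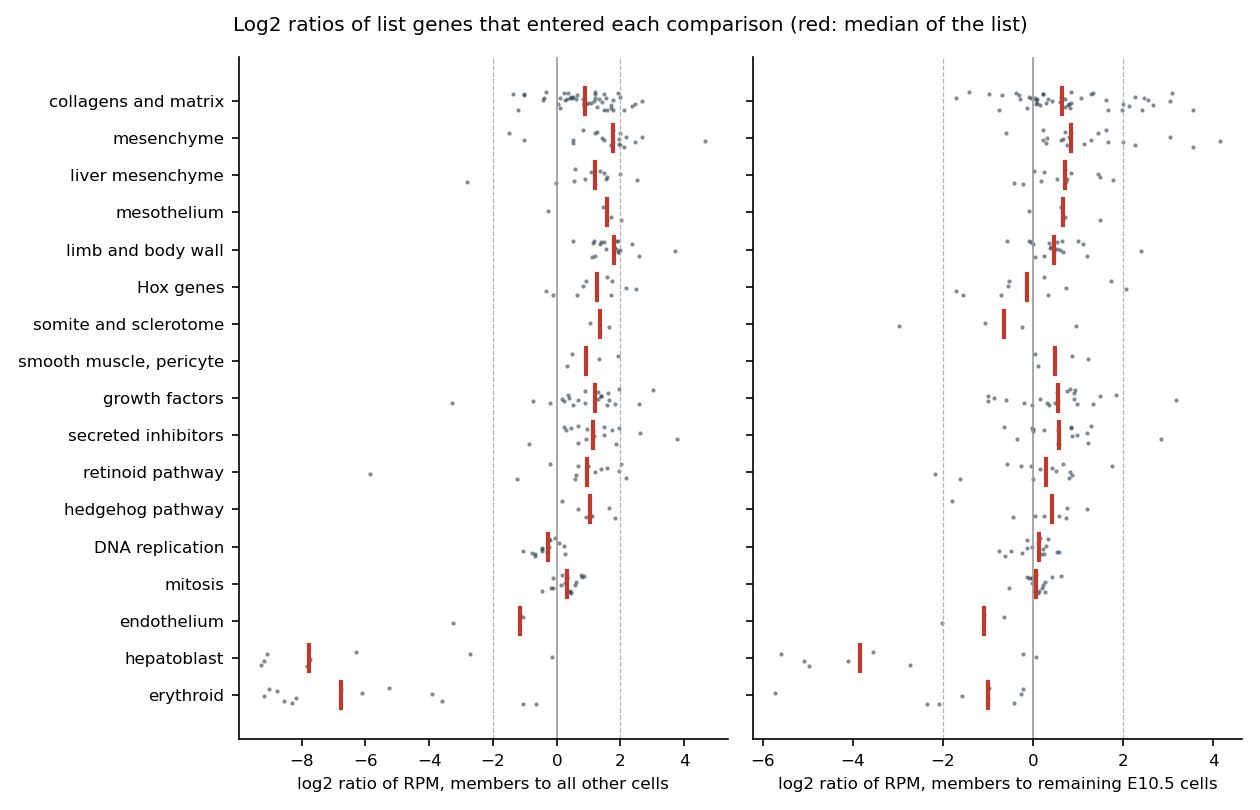
Log2 ratio of RPM of each list gene that entered, members to all other cells (left) and members to the remaining E10.5 cells (right). Each point is 1 gene, the red bar is the median of the list, and the dashed lines mark a 4-fold difference. The mesenchyme list had a median of 1.77 on the left and 0.85 on the right, and the hepatoblast list -7.78 and -3.83.

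The 20 leading genes of the members by level were ranked by the ratio to the highest of the other classes with at least 10 cells, among 66 genes that had at least 3 reads in at least 50% of members and a ratio above 1 in every pool. *Pdgfra*, which the rule fixed, led at a log2 ratio of 4.14. It was followed by *Nfatc4* (1.96), a calcium-responsive transcription factor, *Ahnak* (1.91), a very large scaffold protein, *Alcam* (1.78), an adhesion molecule used as a marker of mesenchyme and mesothelium of the fetal liver, and *Gpx3* (1.44), a secreted glutathione peroxidase. The remaining E10.5 cells were the next class for 19 of the 20 and the remaining E13.5 cells for *Rbms3*, an RNA-binding protein. The last of the 20, *Phf21a*, had a log2 ratio of 0.95. Among these 66, no gene other than *Pdgfra* reached 4-fold over each of the ranked classes. The ranking leaves out the 8 E13.5 cells that met the same read limits, in which *Pdgfra* stood at 334 RPM against 340 RPM in the members. In those cells 7 of the 20 genes lay above the members, *Ahnak* (236 against 139.8 RPM), *Alcam* (604 against 519 RPM), *Rbms3* (681 against 510 RPM), *Ugdh*, *Pcdh7*, *Ptn* and *Phf21a*.

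*Alcam* (chr16:52248996-52454074) illustrates the overlap. It ranged from 0 to 3799 RPM per member with a median of 99.4. It was present in 71.1% of members and 41.3% of remaining E10.5 cells in pools 3 to 5, and in 25% and 12.9% in pools 1 and 2. *Gpx3* was carried by 71 members, and 23.1% of its reads came from 1 of them. Further down the ranking stood *Ctnna2* and *Tenm4*, proteins of cell contacts, *Ugdh*, which makes a sugar precursor of hyaluronan, *Bnc2*, a zinc-finger transcription factor of mesenchyme, *Pkdcc*, a secreted kinase of the skeleton, and *Ptn*, the heparin-binding growth factor pleiotrophin. *Ptn* had 2087 RPM in the members and 1059 RPM in the remaining E10.5 cells.

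More genes of body wall and limb mesenchyme than of liver mesenchyme were detected per cell, in the members and in the remaining E10.5 cells alike. The median member carried 8 of 26 limb and body wall genes and 3 of 20 liver mesenchyme genes, and 95.4% of members had at least 3 of the first and 66.2% at least 3 of the second. The median remaining E10.5 cell carried 4 of the first and 2 of the second. These lists differ in length and in the level of their genes, and 2 of the 20 liver mesenchyme genes were listed at 0 in every cell. The counts are therefore given side by side. Against all other cells, all 20 limb and body wall genes that entered lay above 1 (median log2 ratio 1.81) and 3 were called higher, among them *Tbx5* and *Pitx1*, or 15% against 1.03% of all genes. Of 13 liver mesenchyme genes that entered against all other cells, 11 lay above 1 (median log2 ratio 1.20). Of these 13, 1 was called higher and 1 lower, where 1.03% and 3.29% of all genes were. Against the remaining E10.5 cells 16 of 20 limb and body wall genes lay above 1, the median was 0.47, and *Pitx1* alone was called.

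The most widespread of these genes were *Meis2* and *Meis1*, homeobox cofactors found in many mesenchymes, in 83.8% and 80% of members. *Gli3*, a transcription factor of hedgehog signalling, was present in 85, *Pkdcc* in 79, *Twist2* in 71 and *Prrx1*, a homeobox gene of limb and face mesenchyme, in 70. *Tbx5* (chr5:119832668-119885219), a T-box gene of the forelimb and heart fields, ranged from 0 to 665 RPM per member with a median of 0 and was present in 44. In pools 3 to 5 it was found in 42.2% of members and 13% of remaining E10.5 cells, and in pools 1 and 2 in 15% and 6.45%. *Pitx1*, a gene of the hindlimb and first arch, had 47.5 RPM against 9.06 RPM and was present in only 18 members. *Msx1*, in 58 members, had 329 RPM against 338 RPM in the remaining E10.5 cells.

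Of the liver mesenchyme genes, *Gata6*, a zinc-finger factor of the septum transversum, was found in 70 members, with 0 to 2190 RPM per member and a median of 30.5. Its share was 68.9% of members and 25% of remaining E10.5 cells in pools 3 to 5, but 20% and 17.2% in pools 1 and 2, where the classes were near each other. *Wt1*, a regulator of mesothelium and septum transversum, was found in 33 members (78.6 RPM against 28.2 RPM), *Gata4* in 25 (52.9 against 71.2 RPM), *Hlx*, which the liver mesenchyme needs to support liver growth, in 20 and *Lhx2* in 13. None of the 13 that entered was called against the remaining E10.5 cells, and their median log2 ratio was 0.70. *Gata4* and *Wt1* changed direction between pools, with log2 ratios from -7.48 to 0.07 and from -1.32 to 4.02. *Tcf21*, *Foxf1*, *Lrat* and *Msln* were listed at 0 in every cell of the table and give no information.

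**Figure D3:**
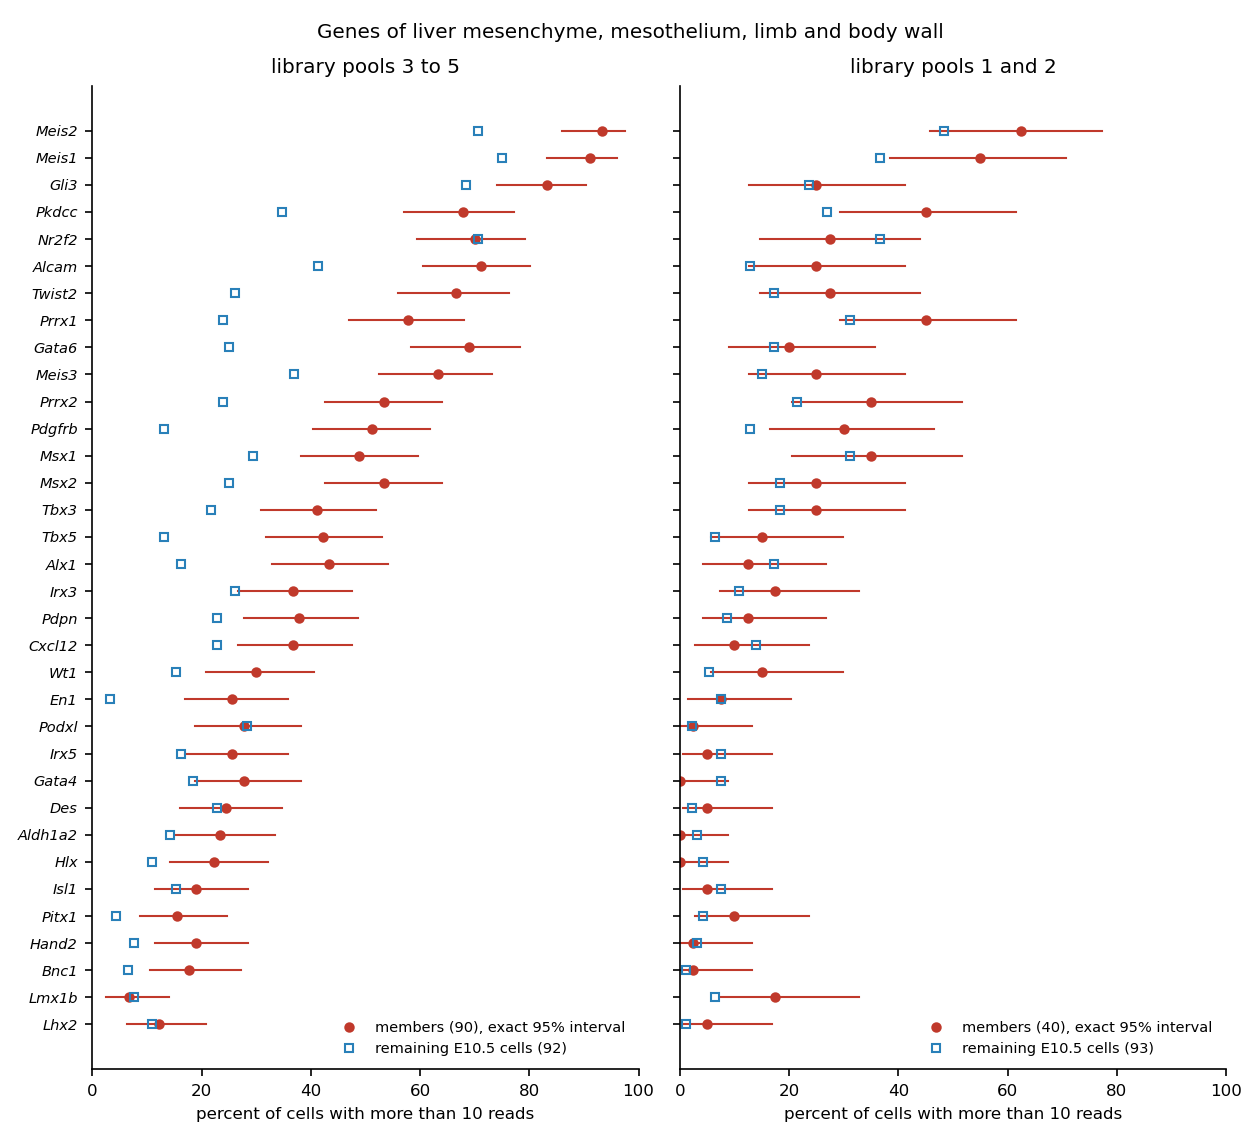
Percentage of cells with more than 10 reads (horizontal axis) for genes of liver mesenchyme, mesothelium, limb and body wall, most of those found in at least 10% of members, in pools 3 to 5 (left) and in pools 1 and 2 (right). Filled points are members with their exact 95% interval and open squares are the remaining E10.5 cells. *Gata6* lay at 68.9% against 25% on the left and at 20% against 17.2% on the right.

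Few mesothelial genes were found. Of 11 mesothelial genes, the median member had 1, 64 members had none and 26 had at least 3. *Podxl* was present in 26 members, *Bnc1* in 17 and *Upk3b*, a membrane protein of mesothelium, in 12. Of the 5 that entered, 4 lay above the remaining E10.5 cells (median log2 ratio 0.66) and none was called.

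Among secreted signals, 3 of the 33 growth factor genes were listed at 0 in every cell, and 23 entered the comparison with all other cells. Of these 23, 2 were higher (*Wnt2* and *Rspo1*, against 1.03% of all genes) and 1 was lower (*Tgfb1*, against 3.29% of all genes). Their median log2 ratio was 1.21. *Wnt2* (chr6:17988940-18030585), a Wnt ligand, ranged from 0 to 1036 RPM per member with a median of 0. It was present in 46 members, or 44.4% of members and 14.1% of remaining E10.5 cells in pools 3 to 5 and 15% and 5.38% in pools 1 and 2. *Rspo1*, which strengthens Wnt signalling through Lgr receptors, had 71.9 RPM in the members and 11.9 RPM in all other cells. *Bmp4* was found in 72 members at 343 RPM and *Mdk*, the growth factor midkine, in all 130 at 5815 RPM, although *Mdk* was at 6706 RPM in the remaining E10.5 cells. *Gdf10*, a BMP-related ligand, was the 1 growth factor called against the remaining E10.5 cells, with 57.96 RPM against 6.44 RPM and 22 cells against 3.

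Of the platelet-derived growth factor genes, the second receptor *Pdgfrb* was present in 58 members. Its level in the remaining E10.5 cells was 46.2 RPM, lower than in the members (log2 ratio 1.45, 0.11 to 3.40 between pools). Of 5 genes of this list that entered against these cells, 3 lay above 1, and the median log2 ratio was 1.45. *Pdgfra* alone was called, where 0.749% of all genes were. The genes that lay lower in the members were the ligand genes *Pdgfa* and *Pdgfc*. Their log2 ratios were -1.05 (-8.16 to -0.77 between pools) and -1.12 (-2.29 to -0.84), and neither reached 4-fold. *Pdgfb* passed 10 reads in 0 members.

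Secreted inhibitors were widespread. Of 17 that entered against all other cells, 16 lay above 1 (median log2 ratio 1.14) and 1 was called higher, *Wif1*, a Wnt-binding inhibitor, against 1.03% of all genes. *Wif1* was carried by 12 members only. *Igfbp4*, which binds insulin-like growth factors, was found in 88.5% of members and *Sfrp1*, a Wnt antagonist, in 77.7%. *Dkk2*, a modulator of Wnt receptors, was found in 48 members at 204.5 RPM against 89.03 RPM in the remaining E10.5 cells, a ratio that changed direction between pools (log2 -1.49 to 3.78).

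The retinoid list had 14 genes that entered, of which 1 was higher (*Crabp1*) and 1 lower than in all other cells (*Rbp4*, the carrier of retinol in blood, at 14.4 RPM against 833 RPM), where 1.03% and 3.29% of all genes were called. *Crabp2* was found in 90 members and *Aldh1a2*, which makes retinoic acid, in 21. Of 7 hedgehog pathway genes, all lay above all other cells (median log2 ratio 1.03), and 0 were called in either direction. *Gli1* and *Ptch1*, genes that hedgehog signalling switches on, were found in 7 and 37 members, and the ligand gene *Shh* had 0 RPM. Of 10 *Hox* genes that entered against the remaining E10.5 cells, 5 lay above 1, the median log2 ratio was -0.15 and none was called. *Hoxc4* and *Hoxc5* were the most widespread of the 23 *Hox* genes with reads, in 61 and 48 members. The other 16 of the 39 on the list, *Hoxc6* and *Hoxc8* among them, were listed at 0 in every cell and give no information. Against all other cells *Hoxb7* was the 1 *Hox* gene called, with 18.1 RPM against 3.98 RPM (1 of 10, against 1.03% of all genes).

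Genes of other cell types were sparse in the members. The hepatoblast list summed to 287 RPM, of which *Dlk1*, a surface protein also made by mesenchyme, gave 259 RPM. *Afp*, limited by the rule, had 0.511 RPM, *Alb* 2.46 RPM and *Ttr* 1.48 RPM, and *Hnf4a*, *Foxa1* and *Foxa2* passed 10 reads in 0 members. Of 9 hepatoblast genes that entered against all other cells, 7 were called lower (3.29% of all genes), a count that the rule largely fixed, since *Afp*-positive cells stand on the other side only. Against the remaining E10.5 cells, which have the same *Afp* limit, 2 of 8 were called lower (0.506% of all genes). Hepatoblast genes other than *Dlk1* were thus at or near 0 in these cells, although they were sorted with an antibody to a hepatoblast antigen.

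The erythroid list summed to 99.8 RPM, with 10 of 13 genes lower than in all other cells (3.29% of all genes), a set that holds the *Klf1*-positive cells kept out of the members by the rule. Against the remaining E10.5 cells 2 of 9 were lower (0.506% of all genes), with a median log2 ratio of -0.997, and 41 members had at least 3 genes of the list. *Hba-x* and *Hbb-y*, embryonic globin genes, each passed 10 reads in 35 members, against 62 and 65 of the remaining E10.5 cells. The leukocyte list summed to 9.44 RPM, and *Ptprc*, which encodes CD45, was at 0.0747 RPM. *Pecam1*, which encodes CD31, passed 10 reads in 7 members. The endothelial list summed to 63.3 RPM, with a range of 0 to 1964 RPM per member.

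Of the muscle progenitor genes, *Lbx1*, *Met* and *Pax3* were rarer in the members than in the remaining E10.5 cells. *Lbx1*, a homeobox gene of migrating muscle precursors, had 0 reads in the members and was present in 22 remaining E10.5 cells. *Met*, the receptor for hepatocyte growth factor, was present in 2 members and 28 remaining cells, and *Pax3* in 2 and 26. Of 6 genes of the list that entered, *Lbx1* and *Met* were called lower, or 33.3% against 0.506% of all genes. The urogenital list summed to 14.1 RPM and the neural crest list to 79.8 RPM. Of 3 heart muscle genes that entered, 1 was called higher than in all other cells, against 1.03% of all genes. It was *Myl4*, an atrial myosin light chain (44.3 RPM against 3.60 RPM, 27 members). Against the remaining E10.5 cells 0 of 3 were called.

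Proliferation genes were detected in many members. *Mki67* was present in 63.1% and *Top2a* in 74.6% of members, which is 59.2% and 70.8% after thinning. In pools 3 to 5 *Mki67* was found in 72.2% of members, 64.1% of remaining E10.5 cells and 96.4% of *Klf1*-positive cells. In pools 1 and 2 it was found in 42.5%, 28% and 56.6% of the same classes. *Top2a* was found in 75.6%, 80.4% and 89.3% of these classes in pools 3 to 5, where the members lay below the remaining E10.5 cells. Its shares in pools 1 and 2 were 72.5%, 60.2% and 77.4%. None of the 16 replication and 18 mitosis genes that entered was called in either comparison. Their median log2 ratios to the remaining E10.5 cells were 0.12 and 0.06.

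The members differed widely among themselves in matrix transcripts. The matrix list summed to a median of 7309 RPM per member, with quartiles of 5410 and 11241 RPM and a highest value of 133954 RPM, or 13.4% of all reads of that cell. The next cells had 103460 and 70855 RPM. The 5 members over 50000 RPM held 28.3% of the matrix reads of all members, and 11 members lay over 20000 RPM, in all 5 pools, 6 of them Lgr5-GFP+. Levels of *Lum*, *Dcn* and *Col1a1* summed over members therefore depend on few cells, and without the highest member they were 454, 339 and 822 RPM.

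Position genes were not spread evenly over the members. For 946 pairs of 44 position genes, Spearman's correlation over the 130 members was averaged within pools, since the pools differ in depth of detection. Members of 1 pool also differ in sort and in the number of genes detected, and the part of either in these values was not tested. *Tbx5*, *Tbx3*, *Irx3* and *Alx1* were higher in Lgr5-GFP+ than in bulk members, as given below. The correlation is a description, because the cells share libraries. The median was 0.01. Of the pairs, 14.4% lay above 0.2 and 4.55% below -0.2. *Tbx5* and *Msx2* went together (0.50, 0.20 to 0.74 between pools), and 36 of the 44 members with *Tbx5* also carried *Msx2*. *Prrx1* and *Alx1* lay at 0.46. Pairs of mesothelial genes formed another, with *Podxl* and *Bnc1* at 0.52 over 4 pools and *Wt1* and *Bnc1* at 0.41. *Gata4* and *Gata6* lay at 0.37, and 23 of the 25 members with *Gata4* carried *Gata6*. A further pair was *Des*, a muscle-type intermediate filament, and *Cxcl12*, a chemokine (0.38, -0.19 to 0.54).

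Negative values were fewer. *Isl1* and *Prrx1* had the lowest mean, -0.34 (-0.49 to -0.11 between pools), and 5 of the 19 members with *Isl1* carried *Prrx1*. *Msx1* and *Meis1* lay at -0.34, *Podxl* and *Prrx1* at -0.31 and *Hlx* and *Prrx1* at -0.26. These values were moderate in size and varied between pools.

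**Figure D4:**
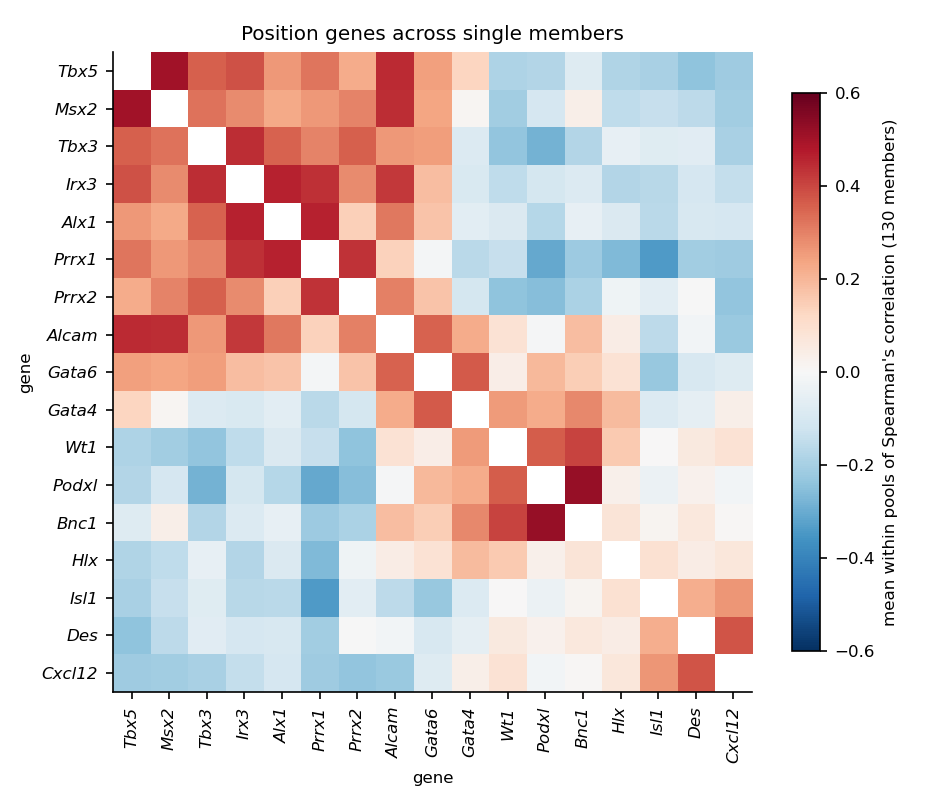
Spearman's correlation between pairs of 17 position genes over the 130 members of both sorts, averaged within pools (colour scale from -0.6 to 0.6). Rows and columns are genes, picked for display after the values were seen. Red cells join *Tbx5*, *Msx2*, *Tbx3*, *Irx3*, *Alx1*, *Prrx1* and *Prrx2*, with *Tbx5* and *Msx2* at 0.50, and a second red patch joins *Wt1*, *Podxl* and *Bnc1*, with *Podxl* and *Bnc1* at 0.52.

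Clustering of the members without the list genes, after centring within pools, gave 2 sub-clusters, of 94 and 36 cells. The split was sensitive to the settings, with 1 to 5 sub-clusters among the alternatives, and so were its sizes. Without pool 4 sub-cluster 2 had 12 cells (8 Lgr5-GFP+ and 4 bulk), and without pool 3 it had 22 (17 and 5). Cells thinned to 400000 reads gave 3 sub-clusters, with 41 and 35, 7 and 26, and 13 and 8 Lgr5-GFP+ and bulk members. For this reason the sub-clusters are numbered, not named, and their differences are described without a test. Sub-cluster 2 held 30 Lgr5-GFP+ and 6 bulk members, and sub-cluster 1 held 31 and 63. Cells of sub-cluster 2 also had more detected genes, a median of 7642 against 5570 (6572 against 4846 after thinning), so shares of cells with a gene move with detection, whose part was not tested.

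Sub-cluster 2 carried more transcripts of matrix and mesothelial genes and of *Wnt2* and *Dkk2*. Of 11251 genes that entered, 355 were higher in it (3.16%) and 1.32% were lower. Pool ratios rest on pools 3 to 5, the only ones with 5 cells on both sides. In these pools a gene absent from both sides had a log2 ratio of 0.927 to 0.991, set by the floor of 3 reads. Such a pool met the condition for genes higher in sub-cluster 2 and failed it for genes lower. The shares of genes higher and lower are therefore not set against each other. Of 22 mesenchyme genes 5 were higher, or 22.7%, among them *Col1a1* (2756 against 336.5 RPM), *Lum* (2036 against 125.5 RPM) and *Col5a1* (137.8 against 28.6 RPM). All 5 members over 50000 RPM of matrix were in it. *Wnt2* had 279 against 64.95 RPM and was present in 27 of 36 and 19 of 94 cells. *Dkk2* had 500 against 89.1 RPM, in 28 and 20 cells. Of 9 mesothelial genes 5 were higher, *Upk3b*, *Upk1b*, *Podxl*, *Lrrn4* and *Krt19*, and *Upk3b* was present in 11 of 36 and 1 of 94 cells. *Upk1b* and *Lrrn4* each passed 10 reads in only 11.1% and 1.06% of cells. In at least 1 pool the ratio of these genes was that of the floor alone (log2 0.927). *Wnt6* passed 10 reads in 6 and 0 cells. *Gata6* was present in 32 of 36 and 38 of 94 cells, short of 4-fold by level.

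Sub-cluster 1 was higher for genes of another set. *Isl1*, a LIM homeobox gene, had 92.5 against 10.3 RPM and was present in 17 of 94 and 2 of 36 cells. *Des* had 53.5 against 5.05 RPM, in 19 and 5 cells. *Flt1*, a receptor for vascular growth factors, had 35.8 against 0.621 RPM, and *Lmx1b*, a gene of dorsal limb mesenchyme, had 43.5 against 3.15 RPM. *Ptch1* had 78.3 against 17.9 RPM and *Osr1* 83.5 against 11.4 RPM. The Wnt ligand gene *Wnt5b* had 50.04 against 7.32 RPM and *Frzb*, which encodes a secreted Wnt inhibitor, 37.4 against 3.68 RPM. The growth factor list summed to 9850 RPM in sub-cluster 1 and 8191 RPM in sub-cluster 2, of which *Mdk* alone gave 6552 and 3928 RPM. Of the 25 growth factor genes that entered, 13 lay higher in sub-cluster 2, with 2 called higher there and 1 called lower (3.16% and 1.32% of all genes). *Cxcl12* (183.3 against 32.3 RPM) changed direction between pools. Each of these named genes other than *Mdk* was carried by a minority of sub-cluster 1. *Foxp2*, a forkhead gene that was not kept out of the clustering, had 407 against 47.2 RPM.

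**Figure D5:**
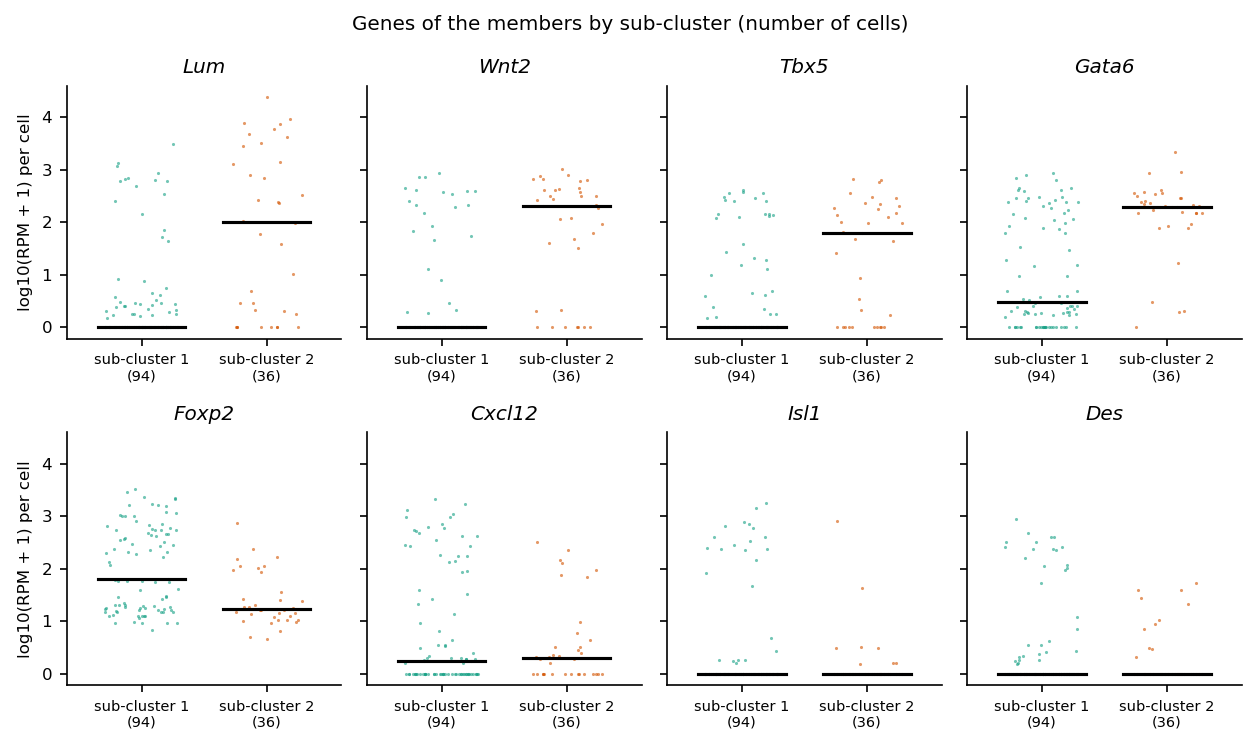
Level of 8 genes in single members as log10(RPM + 1) (vertical axis) by sub-cluster. Each point is 1 cell and the bar is the median. *Lum*, *Wnt2*, *Tbx5* and *Gata6* were present in 22, 27, 23 and 32 of the 36 cells of sub-cluster 2, and *Cxcl12*, *Isl1* and *Des* in 30, 17 and 19 of the 94 cells of sub-cluster 1. The genes except *Foxp2* were kept out of the clustering.

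The members of both sorts were set side by side. The 61 Lgr5-GFP+ members were higher for 216 of 10643 genes (2.03%) and lower for 36 (0.338%), with a median log2 ratio of 0.01. *Lgr5* passed 10 reads in 18 of 61 Lgr5-GFP+ members (29.5%, 18.5 to 42.6) and in 1 of 69 bulk members (1.45%, 0.0367 to 7.81). These were 17 of 44 and 1 of 46 members in pools 3 to 5, and 1 of 17 and 0 of 23 in pools 1 and 2. In pools 3 to 5 the Lgr5-GFP+ members also had more detected genes than the bulk members, a median of 6442 against 5080 after thinning, whereas in pools 1 and 2 the medians were 3090 and 3038.

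Limb and body wall genes leaned to the Lgr5-GFP+ sort. Of 23 that entered, 16 lay above 1, with a median log2 ratio of 0.55. The criterion was met by 5 (*Tbx5*, *Tbx3*, *Irx3*, *Alx1* and *Alx4*), or 21.7% against 2.03% of all genes, and 0 were lower. *Alx4* was scarce, the lowest of the list at 1.45 RPM in the members. It passed 10 reads in 5.56% of the cells of sub-cluster 2 and in 0% of sub-cluster 1. *Tbx5* had 126.9 RPM in Lgr5-GFP+ and 25.5 RPM in bulk members (log2 ratio 2.31, 0.68 to 6.38 between pools). It was present in 30 of 44 Lgr5-GFP+ and 8 of 46 bulk members in pools 3 to 5, and in 3 of 17 and 3 of 23 in pools 1 and 2. *Lum* was present in 26 and 6 members of pools 3 to 5 and in 3 and 3 of pools 1 and 2, and *Dkk2* in 34 and 8 and in 2 and 4. Both changed direction between pools by level. *Wt1* and *Cxcl12* leaned the other way, in 11 and 12 Lgr5-GFP+ against 22 and 25 bulk members, and neither met the criterion. Of 10 erythroid genes 4 were lower in the Lgr5-GFP+ members, all at low levels, such as *Hbb-bt* at 2.39 against 11.3 RPM (0.338% of all genes were lower). Another 4 lay above 1, and the list as a whole summed to 121.1 RPM in Lgr5-GFP+ and 80.04 RPM in bulk members.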

How the data were processed

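Counts of reads per gene for 653 single cells (E10.5 bulk 203, E10.5 Lgr5-GFP+ 211, E13.5 bulk 159, E13.5 Lgr5-GFP+ 80) were used as deposited. The authors aligned 50 bp single-end reads to GRCm38.p6 with spike-in sequences by STAR 2.6.0c and counted unique reads with Subread 1.6.2 on Ensembl release 93, and they kept cells that passed their own quality limits. The deposited counts are not normalised. Names and positions came from GENCODE release M21 (54042 of 54195 genes). In every cell, 25903 genes are listed at 0, 3989 of them protein-coding.

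The members and gene lists were chosen with earlier results of these data known. Reads were summed over cells as RPM; cells are not replicates, each group is 1 sample, the 5 library pools in the library names served as batches, which may also hold different biological replicates, and no p-value was computed. The remaining E10.5 cells numbered 185 and the *Klf1*-positive cells 165, and 1 cell was positive for *Klf1* and *Afp*. Shares have exact Clopper-Pearson intervals. Amplified reads are not independent molecules. No 2 cells had identical counts, and no doublet caller was run on the singly sorted cells. The 16 members that share an index pair with another member lie in different pools. Sub-clusters were computed in scanpy 1.11.5 (2000 variable genes without list genes, log values centred within pool, 20 components, 15 neighbours, Louvain at resolution 0.5). Named genes are the rule's genes and *Crabp1*, list genes with reads, the 20 leading genes by ratio to the highest other class, the 20 most dispersed genes and the 3 leading list genes of each sub-cluster. Some genes these rules name are not reported here. *Lgr5* and *Foxp2* were added after their values were seen. Scripts were tested on simulated data.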

Additional observations from a re-analysis of the deposited data

How the results depend on the processing

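The share of E10.5 cells that met the rule was 37.7% in pools 3 to 5 and 22.9% in pools 1 and 2, a split chosen, like the runs without each gene's highest member, after seeing the data. Members with enough mesenchymal markers were 88.5% when at least 5 were asked for, 100% in pools 3 to 5, 87.5% in pools 1 and 2, and 94.6 to 99.05% with 1 pool left out. Genes higher than in all other cells made up 5.50% of those tested with 3 reads in 1 cell as the filter, 0.265% at 8-fold, 2.14% with no condition on pools, 0.683% without each gene's highest member, 2.90% in pools 3 to 5, 3.22% in pools 1 and 2, and 1.17 to 2.005% with 1 pool left out (2.005% without pool 1, 1.61% without pool 2). Genes lower made up 2.12% at 8-fold, 1.86% among E10.5 cells only, 5.25% in pools 3 to 5 and 8.60% in pools 1 and 2. Genes higher than in the remaining E10.5 cells made up 4.59%, 0.233%, 1.83%, 0.467%, 1.66% and 4.36% in the order of the first series, and 1.03 to 1.42% with 1 pool left out (1.19, 1.13, 1.18 and 1.42% without pools 1, 2, 3 and 5). Fewer pools ask less of the condition on pools, and other causes were not tested. The members formed 1 sub-cluster at resolution 0.3, with 50 components or in pools 1 and 2, 5 at resolution 0.8, 3 in pools 3 to 5, and 2 or 3 with 1 pool left out. Of 260 named genes, 42 were called, and *Hspa1a*, a heat shock gene, reversed to a log2 ratio of 2.41 with E10.5 cells only. Of those not called, 74 changed sign under some setting. No paired analysis was possible because no result comes from a test; each library pool holds cells of both sorts, and ratios within pools are given beside the results. A gene not found in pools 1 and 2, where fewer genes were detected, may be below detection there.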

Other observations

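The 8 E13.5 cells that met the same read limits had mesenchymal genes at summed levels above those of the members. The mesenchyme list summed to 25770 RPM in these 8 cells and 10248 RPM in the 130 members, and *Pdgfra* stood at 334 and 340 RPM. *Ptn* had 3354 against 2087 RPM and *Pcdh7*, a protocadherin that shares 21.1% of its exon bases with exons of other genes, 1137 against 266 RPM. *Bnc2*, present in 66.2% of the members, had 0 RPM in them. With 8 cells these are values only.

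Outside the lists, the genes most dispersed among the members were often carried by 1 cell. Of the reads of *Mir6236* in members, 91.3% came from 1 cell. *Plac1*, known from placenta, passed 10 reads in 16 members and had 262 RPM in sub-cluster 2 against 12.8 RPM in sub-cluster 1, with 41.4% of its reads from 1 cell. *Spon1*, a matrix protein of the spondin family, had 155.4 against 11.5 RPM, with 47.7% of its reads from 1 cell.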
